A study of Homo sapiens with 32 samples.

Results

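The NRF1 members are the 4000 summits with the highest score on chromosomes 1 to 22 and X of the NRF1 list, and the YY1 members are the 4000 highest of the YY1 list on the same chromosomes. They make up 10.2% of the 39180 NRF1 summits and 3.75% of the 106578 YY1 summits there, and 8000 of the 288727 summits in the series. A summit is the base of highest ChIP-seq signal within a called peak. Members were selected on this list's own score, a p-value or q-value that the authors' files give as −log10, and a score can be compared only within its list.

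NRF1, nuclear respiratory factor 1, is a transcription factor that binds a palindrome-like GC-rich site as a dimer. It is known for promoters of genes needed for mitochondrial respiration and for cell growth. YY1 is a zinc finger protein that binds a site with the core ATGG, and is known both as an activator and as a repressor. Its site lies just downstream of the start of many housekeeping genes. There it can overlap the start codon in an element called TISU, the translation initiator of short 5′ untranslated regions. ChIP-seq reads such binding by crosslinking proteins to DNA, recovering fragments with an antibody and sequencing them.

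All samples came from 1 clone, HEK_CloneZD29, of HEK293T cells, a widely used line derived from human embryonic kidney. Every cell in it, controls included, carried ZNF143 fused to a dTAG degron, a tag through which a small molecule sends the protein for degradation. Anti-NRF1 (Nrf1 in the labels) and anti-YY1 precipitations each had 4 untreated control samples and 4 samples given 50 nM dTAGV-1, with 30 minutes of treatment in the protocol. The SP1 and ZNF143 lists served for comparison. By title, anti-SP1 had 4 control and 4 dTAG samples, and anti-ZNF143 had 2 and 2. ZNF143 is the protein that the treatment degrades, and its list may include treated samples. Each list held 1 line per summit with no value per sample or treatment. Which samples entered it was not stated, so treatments were not compared, no spread between replicates could be given, and depth per sample is unknown.

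The 2 sites are shown first in real promoters, because the results turn on where they lie. The NRF1 consensus searched was GCGC, then A, then any base, then GCGC again, and the YY1 consensus was AANATGGCG with N for any base. Each was searched on both strands with 0 mismatches, wholly within 50 bp of the summit. With T as the free base the NRF1 consensus reads the same on both strands. Sequences are reference sequence of build hg38 on the strand of the gene, 5′ to 3′, with the consensus in capitals. The first pair comes from USP21, which encodes a deubiquitinase. The NRF1 copy is at chr1:161159454-161159483, from −46 to −17 bp of the 5′ end, and the YY1 copy at chr1:161159511-161159539, from 11 to 39 bp.
USP21, NRF1 copy: gggtgtggatGCGCAGGCGCtttgagagac
USP21, YY1 copy: gggaccaacaAAGATGGCGgcggcccctg
PCIF1 encodes a methyltransferase that acts on the mRNA cap, and shows the opposite order. Its YY1 copy at chr20:45934615-45934643 lies from −68 to −40 bp and its NRF1 copy at chr20:45934660-45934689 from −23 to 6 bp.
PCIF1, YY1 copy: tgccacactcAAGATGGCGgcgcggccgc
PCIF1, NRF1 copy: ggcggtaccaGCGCATGCGCagcgcggagt
EZH2 encodes the catalytic subunit of Polycomb repressive complex 2 and had an NRF1 member with no YY1 summit near its 5′ end. The copy is on the minus strand at chr7:148884458-148884487, from −196 to −167 bp.
EZH2, NRF1 copy: ccgcccgcgcGCGCACGCGCtgccagtgcc
MRPL46, a mitochondrial ribosomal protein gene, shows a YY1 copy whose ATG is the annotated start codon, and was chosen for display after the values were seen. The copy is on the minus strand at chr15:88467362-88467390, from −2 to 26 bp.
MRPL46, YY1 copy: gggagaacgaAAGATGGCGgcgcccgtaa

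NRF1 scores ran from 40435.1 down to 328.743 with a median of 2871, and the first summit left out also scored 328.743. YY1 scores ran from 32192.9 to 401.622 with a median of 909, and the first left out scored 401.622 as well. Both thresholds therefore cut through closely ranked summits. The NRF1 members lay in 3847 peaks and the YY1 members in 3638, and 294 NRF1 and 691 YY1 members shared a peak with another member. Members are positions in 1 list, not replicates, and the 95% intervals below (Wilson for a share, Newcombe for a difference, order statistics for a median) cover counting error only.

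The members fitted the antibodies' names. The NRF1 consensus lay within 50 bp of 1958 of 4000 NRF1 members (48.95%, interval 47.4 to 50.5), against 0.5% of equally wide flanking windows centred 400 bp away. With 1 mismatch allowed it was at 84.45% against 4.29%. The YY1 consensus lay at 817 of 4000 YY1 members (20.4%, 19.2 to 21.7) against 0.575% of flanks, and with 1 mismatch at 44.05% against 6.66%. For comparison, a window of 500 bp either side of a protein-coding 5′ end held the NRF1 consensus at 11.1% of 19970 genes and the YY1 consensus at 8.23%.

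Strong NRF1 and strong YY1 summits seldom coincided. A YY1 member lay within 100 bp of 289 of 4000 NRF1 members (7.22%, interval 6.46 to 8.07), and the same 289 pairs, each one to one, give the share of YY1 members. Within 50 bp there were 99 pairs. Widening the distance to 250 bp gave 823 NRF1 members (20.6%, 19.4 to 21.9) and 837 YY1 members (20.9%, 19.7 to 22.2), and 500 bp gave 1039 and 1067. Neighbours were thus more often beside each other than on top of each other. By 50-bp steps, the nearest YY1 member lay 0 to 50 bp away at 99 NRF1 members, 51 to 100 bp at 190, 101 to 150 bp at 238, 151 to 200 bp at 177 and 201 to 250 bp at 119.

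The other antibodies' 4000 strongest summits gave a measure of how much sharing occurs among lists of equal length. Within 100 bp, an SP1 member (SP1 is a general promoter factor) lay beside 4.8% of NRF1 members (4.18 to 5.51) and 13.4% of YY1 members (12.4 to 14.5). For ZNF143, a zinc finger promoter factor, the shares were 12.9% (11.9 to 13.9) and 18.8% (17.6 to 20.0). The NRF1 and YY1 pair rose most steeply between 50 and 250 bp. At 50 bp it lay well under YY1 with SP1 (2.48% against 9.12%), and at 250 bp it was 20.6% beside 21.5%.

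**Figure D1:**
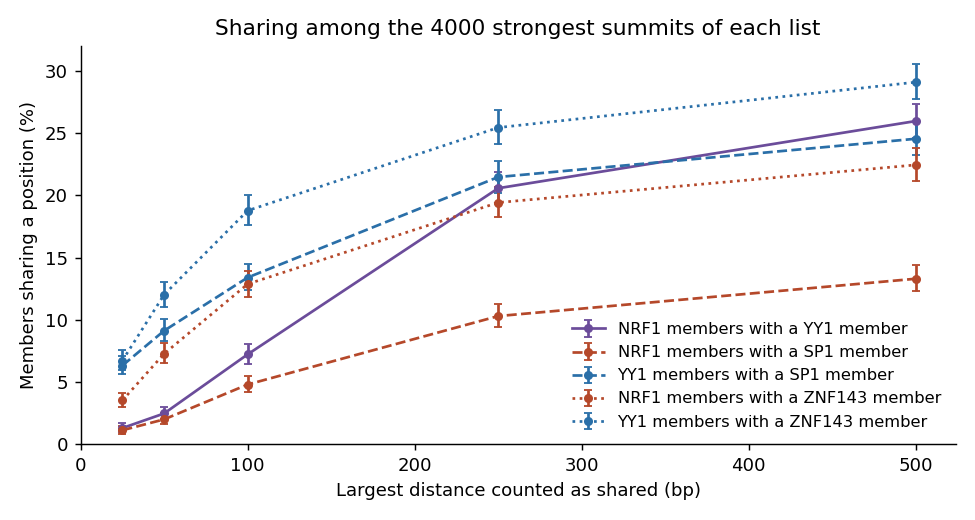
Share of members (percent, y axis) with a member of another list within the distance on the x axis (bp), each list cut to its 4000 strongest summits, with Wilson 95% intervals as bars. The NRF1 and YY1 line starts at 1.3% within 25 bp and is at 2.48% within 50 bp. It reaches 20.6% at 250 bp, close to the line of YY1 members with an SP1 member at 21.5%. The line of NRF1 members with an SP1 member lies lower at every distance.

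Most members had a summit of the other factor within 500 bp, and a strong one lay there at 26.0% of NRF1 and 26.7% of YY1 members. Among the NRF1 members, 775 had a YY1 summit ranked below the 4000 within 100 bp and 2936 had none of any score there. Of the YY1 members, 1199 had a lower NRF1 summit and 2512 had none. Within 500 bp a YY1 summit of any score, from the longer list, was present at 96.5% of NRF1 members. An NRF1 summit, from the shorter list, was within 500 bp of 88.05% of YY1 members. The distance of these nearest summits had a shape. The nearest YY1 summit of any score lay within 50 bp of 10.55% of NRF1 members (9.64 to 11.5), at 101 to 150 bp of 22.95% (21.7 to 24.3) and at 151 to 200 bp of 22.4% (21.1 to 23.7), with a median of 151 bp. Around YY1 members the nearest NRF1 summit was most often within 50 bp (19.7%, 18.5 to 20.9) and its share fell with each 50-bp step to 5.5% (4.84 to 6.25) at 251 to 300 bp.

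Positions with both strong summits differed from the rest in several ways that the rule did not use. A protein-coding 5′ end was within 500 bp of 90.7% of shared and 75.4% of unshared NRF1 members, a difference of 15.3 points (11.1 to 18.4). At YY1 members these shares were 91.0% and 72.2% (difference 18.8 points, 14.7 to 21.9). An SP1 summit of any score lay within 100 bp of 77.5% of shared and 44.1% of unshared NRF1 members, and a ZNF143 summit at 66.8% and 24.1%, a difference of 42.7 points (36.9 to 48.0). On the YY1 side the gap was smaller, with SP1 at 72.0% and 56.4% and ZNF143 at 63.0% and 48.6% (difference 14.4 points, 8.49 to 20.0). Shared positions were therefore also where summits of the other 2 factors gathered.

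The 2 consensus sequences separated the same groups. At NRF1 members with a YY1 member within 100 bp, the YY1 consensus was present at 12.8%, against 0.674% of those without (difference 12.1 points, 8.74 to 16.5). At YY1 members the NRF1 consensus was present at 11.1% with and 0.0808% without an NRF1 member (difference 11.0 points, 7.87 to 15.1). Over all YY1 members the NRF1 consensus was at 0.875% (0.630 to 1.21), beside 0.775% of their flanks. These groups were formed by members of the other list, where that list's consensus is frequent, so a low share in the unshared group follows in part from how it was formed. The factor's own site moved in opposite directions. The NRF1 consensus was less frequent at shared than at unshared NRF1 members (39.1% and 49.7%, difference −10.6 points, −16.3 to −4.66), while the YY1 consensus was more frequent at shared YY1 members (27.3% and 19.9%, difference 7.45 points, 2.46 to 13.0).

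The NRF1 members as a whole had fewer neighbours from the other lists. A ZNF143 summit of any score lay within 100 bp of 27.2% of NRF1 and 49.6% of YY1 members, and an SP1 summit within 100 bp of 46.5% and 57.55%. The differences were 22.4 points (20.3 to 24.5) and 11.05 points (8.87 to 13.2) in favour of YY1. The SP1 consensus KGGGCGGRR (K stands for G or T, R for A or G) ran the other way. It was at 20.7% of NRF1 members, against 6.55% of their flanks, and at 5.725% of YY1 members, against 5.737% of theirs. DNA around NRF1 members was also richer in G and C, with a median of 68.7% in the 201 bp at the summit against 63.7% for YY1.

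Both sets were promoter sets, with the summit on opposite sides of the transcript's start. The share of members with a protein-coding 5′ end inside 500 bp was 76.5% for NRF1 (75.2 to 77.8) and 73.6% for YY1 (72.2 to 74.9), a difference of 2.93 points (1.03 to 4.82). This small difference turned with the number of summits taken. With the 2000 strongest of each list it was −1.55 points (−3.89 to 0.789), and the 1000 strongest were near a 5′ end in 85.2% of cases for NRF1 and 89.1% for YY1.

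The side of the 5′ end showed a far larger difference. Of the members within 500 bp, 83.4% of 3060 NRF1 members lay upstream, against 37.7% of 2943 YY1 members, a difference of 45.6 points (43.4 to 47.8). The median position was −60 bp for NRF1 (−63 to −56, quartiles −132 and −17) and 31 bp for YY1 (27 to 34, quartiles −63.5 and 85), measured on the gene strand from the 5′ end of the canonical transcript. The most populated 25-bp bin was −50 to −26 for NRF1, with 443 members, and 25 to 49 for YY1, with 357. In the 100 bp just upstream lay 49.9% of NRF1 and 19.2% of YY1 members near a 5′ end, and in the first 100 bp of the transcript 7.88% and 42.3%. Taking the outermost 5′ end of the gene record instead moved both medians downstream, to −28 and 56 bp, and kept them on their sides.

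**Figure D2:**
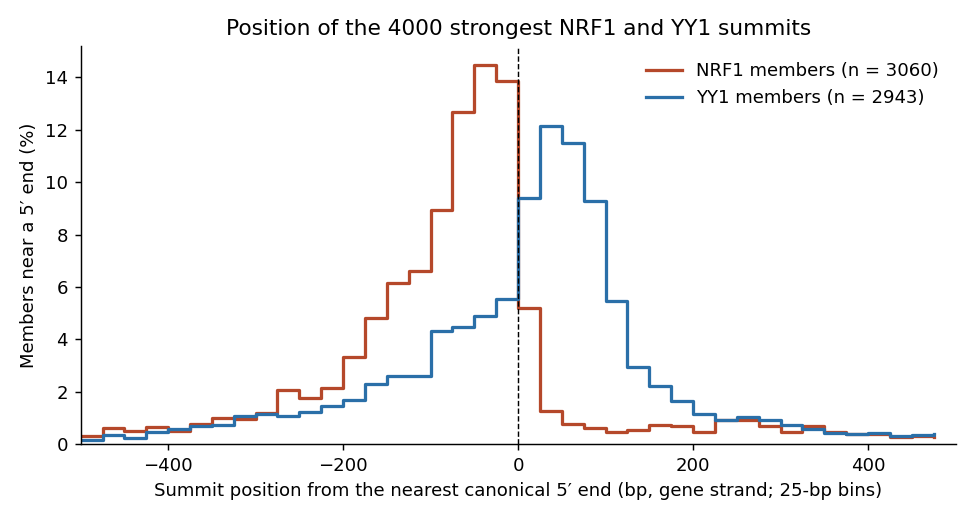
Position of NRF1 and YY1 members relative to the nearest canonical 5′ end (x axis, bp on the gene strand, in 25-bp bins) as a percentage of the members within 500 bp of one (y axis). NRF1 peaks just upstream of the start, at −50 to −26 bp, and drops to under 2% beyond 25 bp downstream, while YY1 peaks at 25 to 49 bp downstream.

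The annotation under the summits followed from this. YY1 members lay in the 5′ untranslated region of a canonical transcript in 20.15% of cases, in coding sequence in 17.5%, in introns in 19.35% and outside canonical transcripts in 42.55%. For NRF1 these shares were 7.22%, 3.05%, 13.2% and 75.9%. Among YY1 members, the upstream share went with the company. It was 27.4% of those with no NRF1 summit within 100 bp, 53.6% of those with a lower NRF1 summit and 56.3% of those with an NRF1 member. For NRF1 members the 3 shares lay between 82.75% and 86.3%. The YY1 groups were formed by nearness to an NRF1 summit, and NRF1 members lay mostly upstream. A higher upstream share beside NRF1 therefore follows in part from the grouping.

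In pairs of neighbouring members the YY1 summit usually lay downstream of the NRF1 summit. Within 100 bp and near a 5′ end, YY1 was downstream in 161 of 262 pairs (61.5%, 55.4 to 67.1), with 1 pair at the same base. Pairs farther apart were ordered more often. The share was 58.6% (48.1 to 68.4, n = 87) at 1 to 50 bp, 63.2% (55.8 to 70.0, n = 174) at 51 to 100 bp and 77.0% (71.1 to 82.1, n = 222) at 101 to 150 bp. It was 75.5% (68.3 to 81.4) at 151 to 200 bp and 72.6% (63.7 to 79.9) at 301 to 500 bp. At 1 to 50 bp the interval includes 50%, and no preferred order was detectable there. Leaving out pairs with 5′ ends on both strands within 1000 bp gave 59.1% (52.5 to 65.4, n = 220) within 100 bp. Over all members near a 5′ end, the median position was −60 bp for NRF1 and 31 bp for YY1. The order in pairs, and its rise with spacing, can therefore follow from where each set lay. Whether pairs were ordered beyond this was not tested.

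Genes gave the same comparison without a limit on the pair's spacing. Here too the order can follow from where each set lay. At 1087 genes both an NRF1 and a YY1 member lay within 500 bp of the canonical 5′ end, and taking the strongest of each, YY1 was downstream at 725 (66.7%, 63.8 to 69.4). The median of YY1 minus NRF1 was 104 bp, with quartiles of −79.5 and 187. Some genes on opposite strands share 1 pair of summits, which then counts once in each order. MRPL32 and PSMA2 are such genes (NRF1 rank 801, YY1 rank 1058), and the interval takes no account of this. NRF1 was upstream and YY1 downstream of the 5′ end at 541 genes (49.8%), both were upstream at 397 (36.5%), both downstream at 108 (9.94%) and the reverse held at 41 (3.77%). As a description across these 1087 genes, which are not independent, Spearman's rho of the NRF1 and the YY1 rank was 0.00383.

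**Figure D3:**
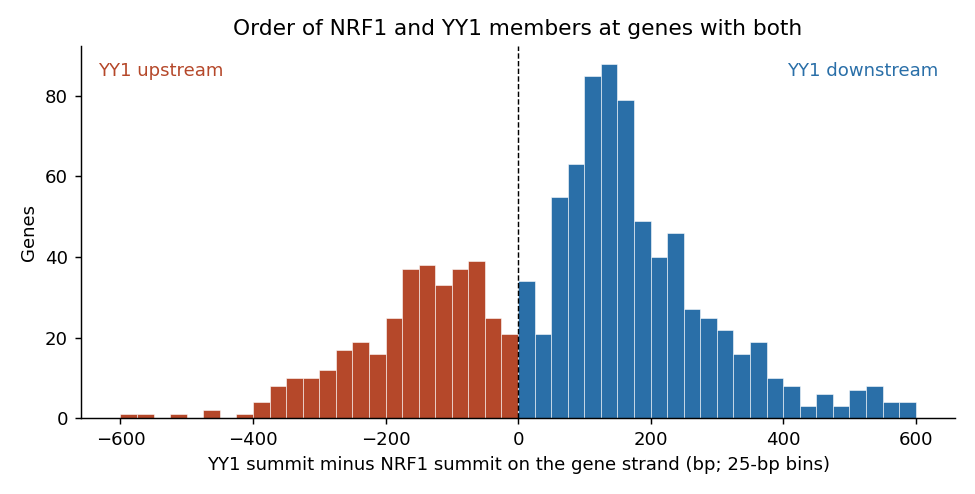
YY1 summit position minus NRF1 summit position on the gene strand (x axis, bp, in 25-bp bins from −600 to 600) at the genes with both members (y axis, number of genes). Genes with YY1 downstream form a peak at 125 to 149 bp with 88 genes, and genes with YY1 upstream form a lower one.

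A summit is only a proxy for the site, so the order was also read from the sequence. The order of the copies can likewise follow from where the copies of each factor lay. At 116 of the genes both members had an exact copy of their consensus within 50 bp. The YY1 copy lay downstream of the NRF1 copy at 72 of them (62.1%, 53.0 to 70.4), and the median gap between centres was 56.5 bp (17.5 to 89.5, quartiles −90.75 and 178.75). No pair of centres was closer than 11.5 bp. The USP21 and PCIF1 sequences above show one gene of each order. At USP21 the NRF1 summit (rank 190) lay at −47 bp and the YY1 summit (rank 323) at 57 bp, 104 bp apart, and at PCIF1 NRF1 (rank 213) lay at −14 bp and YY1 (rank 105) at −41 bp.

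The YY1 copies had a preferred direction, and for the NRF1 copies none was detectable. Of 672 YY1 consensus copies at members near a 5′ end, 499 were written on the strand of the gene (74.3%, 70.8 to 77.4). For NRF1, 717 of 1409 copies that match 1 strand only were on the gene strand (50.9%, 48.3 to 53.5). YY1 copies on the gene strand were centred at a median of 19 bp (17 to 22), with 115 copies at 10 to 19 bp and 118 at 20 to 29 bp. Those on the other strand were centred at 0 bp (0 to 3), with 43 copies at 0 to 9 bp. NRF1 copies on both strands lay upstream, at medians of −54.5 bp on the gene strand and −50.5 bp on the other. In all promoter windows, members or not, 65.2% of YY1 consensus copies (62.9 to 67.4, n = 1748) and 49.98% of NRF1 copies (47.9 to 52.0, n = 2291) were on the gene strand. In promoter windows without a member of the same factor, the shares were 57.9% for YY1 (52.8 to 62.8, n = 368) and 54.0% for NRF1 (48.1 to 59.8, n = 274).

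**Figure D4:**
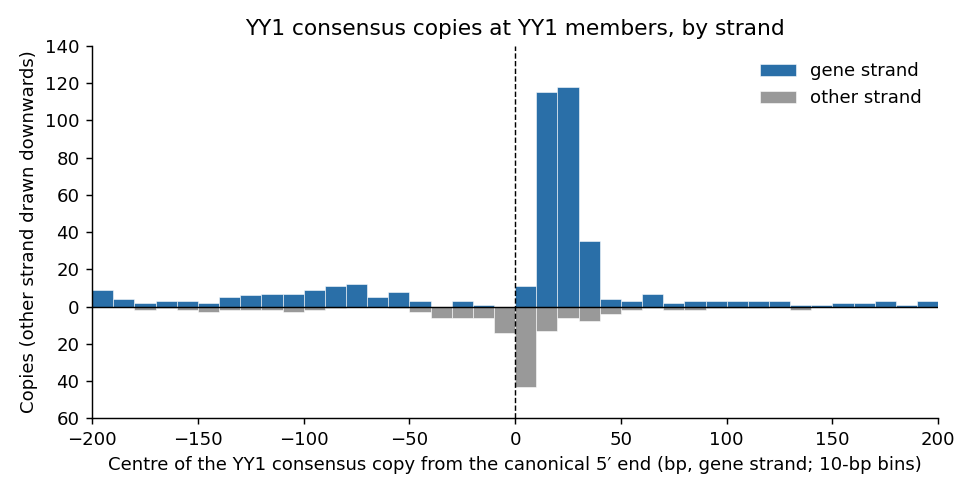
Centres of YY1 consensus copies at YY1 members relative to the canonical 5′ end (x axis, bp on the gene strand, in 10-bp bins), as numbers of copies on the gene strand (upwards) and on the other strand (downwards). Gene-strand copies pile up at 10 to 29 bp, with 115 and 118 copies in 2 bins, and copies on the other strand at 0 to 9 bp, with 43.

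Many of these copies held a start codon. In 226 of the 499 gene-strand copies (45.3%, 41.0 to 49.7) the ATG of the consensus was the annotated start codon of the gene, and the centre of these copies had a median position of 23.5 bp. In these 226 genes the start codon followed the 5′ end after a median of 22.5 bp on the genome, against 89 bp over all 12423 genes whose start codon lies within 500 bp of the 5′ end. Read from the other side, 494 of those 12423 start codons (3.98%) sat in an exact YY1 consensus. A YY1 member lay within 100 bp of 401 of the 494 (81.2%, 77.5 to 84.4), against 10.4% of all 12423 (9.91 to 11.0). A YY1 summit of any score lay within 100 bp of 91.9% of the 494. The 494 were chosen by the consensus, so the 10.4% does not isolate the start codon. With the consensus anywhere within 500 bp of a 5′ end, start codon or not, 77.7% of 1643 genes had a YY1 member there (75.6 to 79.7). An NRF1 member lay within 100 bp of 12.75% of the 494 (10.1 to 16.0) and of 3.53% of all.

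Over all YY1 copies, with or without a start codon, the bases beside the consensus resembled the TISU element. Whether start codon copies differ from the others in these bases was not tested. C preceded the consensus at 54.8% of 827 copies, G followed it at 64.4%, and C came next at 69.3%. At the N, G was present at 54.2%. The start codon genes of highest YY1 rank were TMEM101 (rank 56), UFC1 (rank 59), ZC3HC1 (rank 104), NAGPA (rank 114) and MRPL46 (rank 135), named after their values were seen. NAGPA encodes the enzyme that uncovers mannose 6-phosphate on lysosomal enzymes. Among mitochondrial ribosomal protein genes 12 of 83 were start codon genes (14.5%, 8.47 to 23.6) and among respiratory complex I genes 7 of 38 (18.4%, 9.22 to 33.4), against 1.13% of all genes (0.994 to 1.29). These were the highest shares among the 20 gene lists described below. Other mitochondrial lists had 3 of 30 (protein import), 2 of 48 (complexes II to V) and 0 of 21 (mitochondrial DNA maintenance and expression). Lists without a mitochondrial theme reached 3 of 27 for nucleoporins and 4 of 39 for proteasome subunits, while the DNA repair, HOX and replication-dependent histone lists had 0.

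Counted by gene, the 2 sets were of like size and overlapped in part. Of 19970 protein-coding genes, 3411 had an NRF1 member within 500 bp of the start (17.1%) and 3290 a YY1 member (16.5%). Both were present at 1087 (5.44%), NRF1 alone at 2324 (11.6%) and YY1 alone at 2203 (11.0%), which together give 5614 genes with either (28.1%). The overlap was 31.9% of the NRF1 genes (30.3 to 33.5), above the 16.5% of all genes with a YY1 member, and 33.0% of the YY1 genes (31.5 to 34.7), above the 17.1% of all genes with an NRF1 member. With summits of any score, 52.8% of genes had NRF1 and 63.1% had YY1. A weaker YY1 summit was present at 97.7% of the genes with an NRF1 member alone (97.0 to 98.3), and a weaker NRF1 summit at 90.1% of those with a YY1 member alone (88.7 to 91.2). Genes specific to 1 factor in the strict sense were few, 53 for NRF1 and 219 for YY1. The YY1 list is longer (106578 summits against 39180), which leaves fewer genes without a YY1 summit. These 2 counts, and the 2 shares before them, therefore do not compare the factors on equal terms.

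ZNF143 marked the groups unevenly. The share with a ZNF143 summit of any score inside 500 bp was 57.0% of genes with NRF1 alone (55.0 to 59.0), 82.6% with YY1 alone (80.9 to 84.1), 84.0% with both (81.7 to 86.1) and 20.2% with neither. An SP1 summit was present at 98.0%, 99.5% and 99.0% of the 3 groups with a member, and at 51.1% of genes with neither. The SP1 list is far longer, with 126181 summits on these chromosomes against 16165 for ZNF143. SP1 was at nearly all genes of the 3 groups and had little room to differ. The 2 lists are therefore not compared on equal terms.

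The 53 genes with an NRF1 member and no YY1 summit were led by C15orf40 (rank 94, −10 bp), C8G (rank 566, −455 bp), ZFP69B (rank 691, −416 bp) and ING2 (rank 954, −338 bp). ING2 encodes a chromatin reader of histone H3 methylation. Then came MORF4L1, a subunit of histone acetyltransferase complexes (rank 1162, −68 bp), and TBC1D17, a regulator of Rab proteins (rank 1354, −210 bp). HAPSTR1, DAW1, CCDC92 and EZH2 followed at ranks 1457 to 1848. The first 10 genes all had an exact NRF1 consensus within 50 bp of the summit. Of the 53, 32 had an SP1 summit (60.4%, 46.9 to 72.4) and 11 a ZNF143 summit (20.8%).

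The 219 genes with a YY1 member and no NRF1 summit began at rank 23, and the 53 genes above at rank 94. A larger group tends to begin higher by its size, so these first ranks do not compare the factors. The summit with rank 23 (score 16885.5, chromosome 1, position 222712696) lay at 132 bp of BROX, inside the gene, and at −205 bp of AIDA, which starts close by on the opposite strand. GATB, which encodes a subunit of the mitochondrial glutamyl-tRNA amidotransferase, followed (rank 92, 18 bp), then SHLD1 of the shieldin complex in DNA repair (rank 106, −66 bp) and ZNF577 (rank 161, −81 bp). DCAF6, 2 genes without a symbol, the chromatin protein WIZ, the endosomal protein VPS16 and KMT2E completed the first 10 positions, at ranks 168 to 314. An SP1 summit was present at 217 of the 219 (99.1%) and a ZNF143 summit at 53.4% (46.8 to 59.9).

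Where both were strong, the lowest sum of ranks was at ZNF747 and an overlapping unnamed gene on chromosome 16. There NRF1 (rank 21, score 21307.5) and YY1 (rank 13, score 20590.3) were 17 bp apart, at −156 and −139 bp of ZNF747, with YY1 downstream. PAGR1, a partner of histone methyltransferase complexes, had the NRF1 summit of rank 3 at −94 bp and a YY1 summit of rank 110 at −152 bp. MAP1LC3B, the autophagy protein LC3B, had NRF1 (rank 269) at −183 bp and YY1 (rank 108) at −92 bp. UBN2, a histone chaperone subunit, had NRF1 (rank 29) at −28 bp and YY1 (rank 377) at 87 bp. CHTOP, an mRNA export factor, had NRF1 (rank 260) at −94 bp and YY1 (rank 243) at 16 bp. RPRD2 kept this order, with YY1 87 bp downstream, and ACTR8, a subunit of the INO80 remodeller, reversed it, with YY1 at −38 bp from the NRF1 summit.

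The first rank of each set fell at promoters where the other factor had a summit but no member. NRF1 rank 1 (score 40435.1, chromosome 1, position 231337930) lay at −78 bp of EXOC8, a subunit of the exocyst, and SPRTN, a protease for DNA-protein crosslinks, starts on the opposite strand. The best YY1 summits at these 2 genes ranked 5391 and 9459 of 106578, scoring 292.5 and 160.5 beside a list median of 15.0. YY1 rank 1 (score 32192.9, chromosome 3, position 57756079) lay at −230 bp of SLMAP, with no exact YY1 consensus within 50 bp. The NRF1 summit there ranked 6685 of 39180, scoring 55.7 beside a list median of 6.16. YY1 rank 3 lay between the canonical 5′ ends of UFD1 and CDC45, genes of protein turnover and of the replicative helicase, with an NRF1 summit of rank 9788 only 14 bp away.

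At the factors' own genes, the NRF1 gene had both members, NRF1 at 85 bp (rank 2312) and YY1 at −118 bp (rank 614). The ZNF143 gene had a YY1 member at −298 bp (rank 90, score 9638.08) and a lower NRF1 summit at −194 bp (rank 9916). The YY1 and SP1 genes had no member of either set within 500 bp, and their best NRF1 summits ranked 11958 and 22252.

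Gene groups were then described by 20 lists of symbols, each beside the share over all genes and with no test. Nuclear genes of mitochondria carried strong YY1 summits more often than strong NRF1 summits. Of 83 mitochondrial ribosomal protein genes, 62 had a YY1 member (74.7%) and 28 an NRF1 member (33.7%), against 16.5% and 17.1% of all genes. NRF1 alone was at 12, YY1 alone at 46 and both at 16. MRPS15 (YY1 rank 116) and MRPL11 (rank 172) stood for YY1 alone, MRPL17 (NRF1 rank 374) for NRF1 alone, and MRPL24 (NRF1 rank 26, YY1 rank 1228) for both.

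Respiratory chain genes were more even. Complex I, which takes electrons from NADH, had YY1 at 24 of 38 genes (63.2%) and NRF1 at 16 (42.1%), with NDUFA13 (YY1 rank 120), NDUFA8 (NRF1 rank 232) and NDUFS7 (NRF1 rank 159, YY1 rank 362) as examples. Complexes II to V, with cytochrome c, had YY1 at 28 of 48 (58.3%) and NRF1 at 22 (45.8%). SDHA (NRF1 rank 96) and CYCS, the cytochrome c gene (NRF1 rank 386, −198 bp), were in the NRF1 group, UQCRH (YY1 rank 33) in the YY1 group, and COX6A1 (NRF1 rank 41, YY1 rank 586) in both. Protein import into mitochondria had YY1 at 19 of 30 and NRF1 at 12. In the list of mitochondrial DNA maintenance and expression YY1 was at 13 of 21 and NRF1 at 7. The 7 NRF1 genes were POLRMT (rank 118), MTIF3, TWNK and TFB2M with NRF1 alone and POLG2, TFAM and TFB1M with both. TFAM had NRF1 at −67 bp and YY1 at 87 bp. With summits of any score the lean toward YY1 in these mitochondrial lists was smaller or absent. NRF1 was then at 76 and YY1 at 83 of the 83 mitochondrial ribosomal protein genes. The counts were 34 and 37 of 38 for complex I and 41 and 41 of 48 for complexes II to V. They were 29 and 30 of 30 for protein import and 20 and 21 of 21 for mitochondrial DNA maintenance and expression.

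Among strong summits the protein synthesis and proteasome lists leaned the same way, as did the spliceosome and nucleoporin lists. Cytosolic ribosomal protein genes had YY1 at 59 of 86 (68.6%) and NRF1 at 34 (39.5%), both at 23. RPS27 (YY1 rank 58) and RPL12 (rank 93) had YY1 alone, RPL36 (NRF1 rank 100) NRF1 alone, and RPL13A (NRF1 rank 333, YY1 rank 302) both. Proteasome subunits had YY1 at 18 of 39 (46.2%) and NRF1 at 10 (25.6%). For aminoacyl-tRNA synthetases, which charge tRNAs, the counts were 16 and 12 of 35, with SARS1 (NRF1 rank 68) and the mitochondrial LARS2 (YY1 rank 80) as examples. Translation initiation factors had YY1 at 24 and NRF1 at 19 of 46, core spliceosome genes 23 and 19 of 46 and nucleoporins 14 and 9 of 27. E2 ubiquitin-conjugating enzymes, with 12 and 10 of 34, and RNA polymerase subunits, with 11 and 10 of 33, were nearly even. With summits of any score the gap was smaller for cytosolic ribosomal protein genes (YY1 at 81 and NRF1 at 76 of 86) and proteasome subunits (34 and 30 of 39). For RNA polymerase subunits it was wider (29 and 26 of 33).

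Among strong summits only, genes of the cell cycle and of genome upkeep leaned toward NRF1. Mitosis and kinetochore genes had NRF1 at 17 of 42 (40.5%) and YY1 at 10 (23.8%), with CENPI (NRF1 rank 707) and the checkpoint gene MAD2L1 (rank 1126) among those with NRF1 alone. DNA repair genes had NRF1 at 21 of 52 (40.4%) and YY1 at 14 (26.9%), led by XRCC2 of homologous recombination (NRF1 rank 6, −63 bp) and XRCC5, the Ku80 gene (rank 221). DNA replication was nearly even, with NRF1 at 15 and YY1 at 14 of 43, POLA2 (NRF1 rank 66) and CDC45 (YY1 rank 3) at the top of each. With summits of any score the lean was absent. NRF1 was then at 34 and YY1 at 37 of the 42 mitosis and kinetochore genes. The counts were 46 and 50 of 52 for DNA repair and 40 and 42 of 43 for DNA replication, beside 52.8% and 63.1% of all genes.

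Large gene families lay closer to the share over all genes, or below it. Zinc finger genes of chromosome 19 had NRF1 at 55 of 246 (22.4%) and YY1 at 61 (24.8%), with ZNF576 (NRF1 rank 67) and ZNF350 (YY1 rank 35) first. Replication-dependent histone genes had NRF1 at 16 of 69 and YY1 at 18, for example at H2BC11 and H2AC11, which share a summit (NRF1 rank 2441), and at H2BC4 and H2AC6 (YY1 rank 1547, NRF1 rank 3365). HOX genes, the patterning clusters, had 1 NRF1 member, at HOXC13 (rank 3182), and 3 YY1 members, at HOXA3, HOXB6 and HOXB5. No clustered protocadherin gene of 53 had either.

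**Figure D5:**
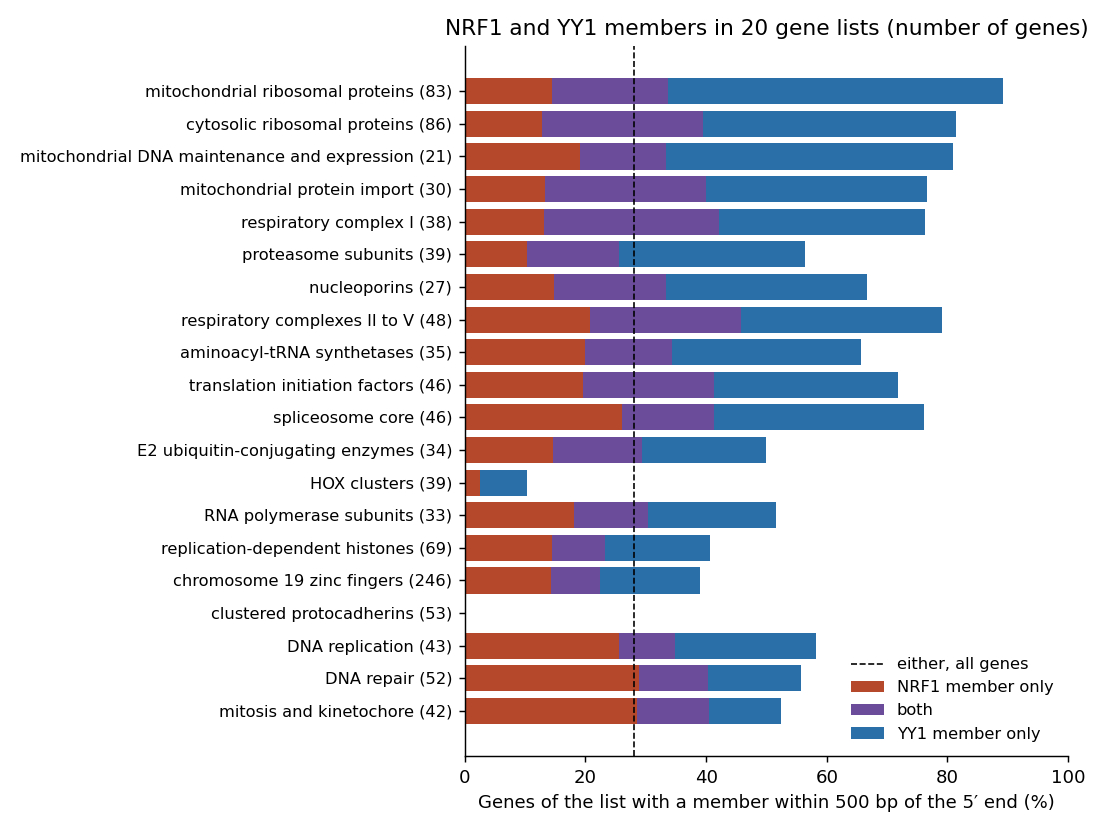
Share of the genes of each list (x axis, percent) with a member within 500 bp of the canonical 5′ end, split into NRF1 alone, both and YY1 alone, for 20 lists (y axis, number of genes in brackets), ordered by NRF1 minus YY1. The dashed line marks the 28.1% of all protein-coding genes with either member, and mitochondrial ribosomal protein genes at the top and mitosis genes at the bottom show the opposite balance.

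Members far from protein-coding 5′ ends carried the exact consensus less often than promoter members in both sets. Further than 10 kb (10000 bp) from any protein-coding 5′ end lay 493 NRF1 members (12.3%, 11.3 to 13.4) and 691 YY1 members (17.3%, 16.1 to 18.5). Distal NRF1 members carried the NRF1 consensus at 41.0% (36.7 to 45.4), against 51.5% of those within 500 bp of a 5′ end, and their median GC content was 66.2% against 69.2%. Distal YY1 members carried the YY1 consensus at 8.54% (6.68 to 10.9), against 22.6% near a 5′ end, and their median GC content was 52.7% against 65.7%. Distal members also scored lower, with medians of 1637 against 3304 near a 5′ end for NRF1 and 612 against 1085 for YY1. The exact consensus fell with rank as well (below), so distance and rank cannot be told apart here. With 1 mismatch allowed the own consensus hardly moved with distance, at 83.6% of distal and 84.8% of promoter NRF1 members and at 42.4% and 42.9% of YY1 members. A ZNF143 summit lay within 100 bp of 16.4% of distal NRF1 and 32.7% of distal YY1 members, against 29.4% and 55.1% near a 5′ end. A 5′ end of some annotated transcript, coding or not, lay within 500 bp of 52.7% of the distal NRF1 and 36.5% of the distal YY1 members.

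The 3 strongest distal NRF1 members had ranks 2, 8 and 42. Rank 2 (score 36081.5, chromosome 4, position 3746650) lay at −19735 bp of ADRA2C without an exact consensus, and the 51 bp around it occur 3 times on the chromosomes searched, so from which copy its reads came cannot be told apart. Rank 8 (chromosome 19, position 6199648) lay 63981 bp downstream of the start of ACSBG2 and 76 bp from the 5′ end of a transcript that is not a canonical coding one. Rank 42 (chromosome 22, position 41666860) had a YY1 summit 13 bp away. The strongest distal YY1 members had ranks 14, 78 and 87, on chromosome 20 (position 41693521), on chromosome 15 inside a CHD2 intron (92918034) and on chromosome 16 (30634281). Only the last of these had an exact YY1 consensus within 50 bp.

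The own consensus thinned out with rank in both sets. Over ranks 1 to 1000, 1001 to 2000, 2001 to 3000 and 3001 to 4000, the NRF1 consensus was at 69.1%, 62.2%, 43.3% and 21.2% of members, and the YY1 consensus at 40.9%, 22.6%, 11.7% and 6.5%. The share near a 5′ end fell from 85.2% to 67.0% for NRF1 and from 89.1% to 59.9% for YY1 over the same range. Since the score chose and ranked the members, these are descriptions of the sets. Read from the promoters, 87.05% of the 2224 genes whose window holds the NRF1 consensus had an NRF1 member there (85.6 to 88.4), and 8.31% of genes without it. A YY1 member was present at 77.7% of the 1643 genes with the YY1 consensus (75.6 to 79.7) and 11.0% (10.5 to 11.4) of those without.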

How the data were processed

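ChIP-seq summits of NRF1 and YY1 were analysed, with the SP1 and ZNF143 lists for comparison. Per the submitters' processing notes, cutadapt, Bowtie2, SAMtools 1.16.1, MACS3 and bedtools were used and the build was hg38, with no role or order given. Column 5 of the lists deposited by the authors holds −log10 values, read from their layout and range as those of a p-value or a q-value, and which of the 2 is not given in the sources used here. The lists give no counts, so depth and the precision it allows are unknown, and control and dTAG samples (10 groups in all, by title) were not compared. Members are the 4000 highest values on 23 chromosomes. The members, the gene lists and the consensus sequences were chosen with earlier results of these data known.

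Distances were measured to the 5′ end of the Ensembl canonical transcript of 19970 protein-coding genes (GENCODE 44). Pairs were mutually nearest members. For each gene the strongest summit within 500 bp of the 5′ end was taken. Shares carry Wilson and differences Newcombe 95% intervals, and no p-value was computed, since the lists hold no replicates. Named genes were the 10 strongest positions of each factor without the other, the 10 lowest sums of ranks, the 4 factors' genes, up to 4 per list and group, and the 3 strongest members further than 10 kb (10000 bp) from a 5′ end. The first ranks and the start codon genes were added after values were seen. Python 3.11.15, numpy 2.4.6, pandas 2.3.3 and scipy 1.17.1 were used, and the functions were tested on simulated positions. Alternatives changed the distances, windows, mismatches, 5′ ends and number of summits. Some items that these rules name are not reported here.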

Additional observations from a re-analysis of the deposited data

How the results depend on the processing

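Over 72 recomputed values, 34 stayed within the interval of the reported value or within 1.5 times the reported count, 37 moved beyond it and 1 changed sign. Sharing of NRF1 with YY1 members was 2.48% within 50 bp, 20.6% (NRF1) and 20.9% (YY1) within 250 bp, and 5.25% and 13.5% with 2000 and 8000 summits per list. The median positions moved to −28 bp (NRF1) and 56 bp (YY1) with the 5′ end of the gene record, and no alternative changed their sides. The share of pairs with YY1 downstream was 71.2% within 250 bp, and 57.0% (53.8 to 60.2) with 8000 summits. Within 50 bp (58.0%, 47.5 to 67.7, or 54.7%, 43.4 to 65.4, without pairs with 5′ ends on both strands) and with 2000 summits (58.5%, 48.4 to 67.9) the interval included 50%. The promoter share was 66.15% (NRF1) and 64.6% (YY1) with windows of 250 bp, 80.65% and 77.7% with 1000 bp, 66.75% and 63.85% with the gene record, 82.05% and 83.6% with 2000 summits, and 67.96% and 62.5% with 8000. NRF1 minus YY1 was −1.55 points with 2000 summits, the reversed value, and 5.475 points with 8000. The NRF1 consensus was at 38.7% within 25 bp, 52.55% within 100 bp, 84.45% with 1 mismatch, 65.65% with 2000 and 26.5% with 8000 summits, and the YY1 consensus at 9.975%, 30.65%, 44.05%, 31.75% and 11.4%. YY1 copies on the gene strand made up 67.5% with 1 mismatch and 70.4% with the gene record. Genes with NRF1 alone numbered 1456 with 2000 summits, and genes with both 395 with 2000 and 2967 with 8000. Larger sets and wider windows hold more positions by construction, and for the other moves the cause was not tested.

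No paired analysis was possible because the lists hold 1 value per summit and none per replicate. Leaving out a replicate was not possible for the same reason. Depth is not given by the lists, so a summit missing from a list or from its first 4000 does not show that the factor is absent.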

Other observations

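The letters inside the consensus went with rank, as a description of scores that chose the members. NRF1 members whose nearest copy reads GCGCATGCGC, the fully symmetric word, had a median rank of 958 (429 members). The median rank was 1501 for GCGCAAGCGC (157 members), 1511 for GCGCAGGCGC (889) and 1710 for GCGCACGCGC (483). Members with 2 or more copies had a median rank of 585.5 (174 members), those with 1 copy 1527.5 (1784) and those with 0 copies 2629.5 (2042). For YY1 the median ranks were 859 for AACATGGCG (147 members), 932.5 for AAGATGGCG (440), 1143 for AAAATGGCG (195) and 1476 for AATATGGCG (35), and 2267 for the 3183 members with 0 copies.

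YY1 summits did not lie on the centre of their consensus copy. Read along the strand of the copy, the summit was a median of 8 bp past the centre (6 to 10, n = 817), and 13 bp past it (10 to 16, n = 491) for copies on the gene strand near a 5′ end. Copies on the other strand near a 5′ end had a median of −4 bp (−8 to 1, n = 173), so there too the median summit lay toward the gene's body, with an interval that includes 0. NRF1 summits lay a median of 0.5 bp past the centre along the strand of the copy (−0.5 to 1.5, n = 1558). Near a 5′ end their median was −1.5 bp (−2.5 to 0.5, n = 658) for copies on the gene strand and 2.5 bp (1.5 to 4.5, n = 630) for copies on the other strand, both toward the upstream side of the gene, and the interval of the first includes 0.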
